A study of Mus musculus with 12 samples.

Results

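To describe how transcripts of the signal transducers and activators of transcription (STATs) and of the Janus kinases (JAKs) varied in mouse peritoneal macrophages, 9 genes were followed: Stat2, Stat3, Stat4, Stat5a, Stat5b, Stat6, Jak1, Jak2 and Jak3. They were chosen by gene symbol, and all 9 were found among the 16920 rows of each deposited table and passed the filter on low counts that left 12064 genes. Other rows of these 2 families were not used here. The 12 libraries formed 4 groups of 3: wild-type (WT) or Ythdf1-/- (KO) cells, each kept for 6 h with PBS or with 1 µg/mL bacterial lipopolysaccharide (LPS). All mice were on the C57BL/6 background and aged 6 to 10 weeks. The knockout was a whole-animal line made by genome editing and not limited to macrophages, and the cells of both genotypes were drawn into the peritoneum before collection (with starch broth in the series record, with thioglycollate in the study's methods). The replicates were described as independent biological samples, but how many mice gave each one is not given in the sources used here.

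JAKs are tyrosine kinases held on the inner side of cytokine receptors, where binding of a cytokine activates them. They then phosphorylate STATs, which pair, enter the nucleus and bind DNA at interferon-stimulated response elements or at gamma-activated sites. In macrophages, LPS is sensed by a Toll-like receptor that has no JAK. JAKs act at the receptors of the cytokines that the cells then release, among them type I interferon and interleukins 6 and 10. SOCS proteins, themselves products of STAT-driven genes, switch the pathway off.

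Promoters are shown for the members with the steepest response to LPS and for the other member whose promoter held a searched motif. Of the 9 genes, 2 had an interferon-stimulated response element, searched on both strands as 2 copies of GAAA with any 2 bases between them, in a RefSeq promoter window from 250 bases before to 50 bases after a start site. The motif lay from -222 to -213 in the Stat2 promoter, on the opposite strand, and from -97 to -88 in the downstream one of the Stat4 promoters. It occurred in 3.44% of 32851 promoters. Neither a gamma-activated site (TTCNNNGAA, in 8.30% of promoters) nor an NF-kB motif (GGGA and TTCC with any 2 bases between them, in 1.47%) was found in any member's window, which says only that these letters were not there. The 250 bases before each start (GRCm38.p6, plus strand, 5′ to 3′) are printed with the response element in capitals, for Stat2 at chr10:128270248-128270497, for Stat4 at chr1:52007990-52008239 and for Jak2, which held none of the motifs, at chr19:29251553-29251802.
Stat2: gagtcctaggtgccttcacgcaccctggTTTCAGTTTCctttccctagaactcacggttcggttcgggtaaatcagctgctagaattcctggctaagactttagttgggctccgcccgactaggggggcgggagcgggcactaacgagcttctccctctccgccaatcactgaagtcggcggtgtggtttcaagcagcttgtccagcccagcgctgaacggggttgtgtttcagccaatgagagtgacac
Stat4: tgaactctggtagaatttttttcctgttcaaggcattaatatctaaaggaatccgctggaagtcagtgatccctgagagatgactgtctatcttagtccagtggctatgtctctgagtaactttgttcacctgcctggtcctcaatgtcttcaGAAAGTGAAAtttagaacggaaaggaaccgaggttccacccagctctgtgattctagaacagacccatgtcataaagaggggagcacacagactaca
Jak2: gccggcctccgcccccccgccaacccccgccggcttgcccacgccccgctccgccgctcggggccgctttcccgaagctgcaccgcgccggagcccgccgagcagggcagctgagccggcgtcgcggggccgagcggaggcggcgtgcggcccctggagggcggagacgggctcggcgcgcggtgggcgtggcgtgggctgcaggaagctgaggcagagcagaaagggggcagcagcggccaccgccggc

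Stat5a and Stat5b lie head to head on chromosome 11 with a gap of 346 bp, and Stat3 follows Stat5a after 1636 bp. Stat5b spans 100780731 to 100859004, Stat5a spans 100859351 to 100885169 and Stat3 spans 100886806 to 100939594 (GRCm38.p6). The coding sequences of the STAT5 pair (2391 and 2358 bases in GENCODE M21) share 10 identical runs of 50 bases or more, which cover 1098 bases of each, and the sequenced reads were 50 bases long. The second longest is shown since a read that falls inside it cannot be placed on 1 of the 2 genes by its sequence. It covers coding positions 441 to 569 in both, counted from the A of the start codon, and ends at the substitution C570A, with the base of Stat5a given before the position.
Stat5 shared run: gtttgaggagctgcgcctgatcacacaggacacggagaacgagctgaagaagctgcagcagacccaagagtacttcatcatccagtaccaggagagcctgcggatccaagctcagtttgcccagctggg

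Of all 50-base windows, 14.7% in Stat5a and 11.1% in Stat5b were shared between them, so the split of reads between this pair is uncertain. The counts of Stat5a carried decimals in 12 libraries and those of Stat5b in 11, whereas Stat2 and Stat4 had whole numbers throughout. Stat4 shared 27.1% of its windows with the overlapping gene model Gm28177, and Jak3 shared 8.04% with its neighbour Insl3. Stat6 carried decimals in 12 libraries although none of its windows was shared with another gene.

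Total counts were between 21546274 and 22017005 per library. Values are CPM, counts relative to the library total, after TMM scaling. This method assumes that most genes do not change. Its factors were 1.26 to 1.31 in PBS libraries but 0.744 to 0.808 in LPS libraries. A count of 3, the limit that a count of 0 allows, corresponded to 0.105 to 0.187 CPM. The WT LPS replicate 1 stood apart from replicates 2 and 3 of its group, with a mean chi-square per gene of 32.7 and 25.5 against 3.08 between the latter. The KO LPS replicates 2 and 3 were at 16.7, against 7.43 and 5.83 for the other pairs of their group. Ythdf1 itself was at 41.9 to 45.0 CPM in WT PBS and 55.4 to 58.1 CPM in KO PBS libraries, and at 194 to 212 CPM in WT LPS and 192 to 205 CPM in KO LPS libraries. It was thus not lower in the libraries labelled KO, genotype comparisons rest on the labels, and "KO" below means labelled KO. The 10 macrophage markers summed to between 17706 and 20869 CPM in every library. The T cell receptor subunits Cd3e, Cd3d and Cd3g did not exceed 2 counts in any library. Other T cell markers were found, with at most 1553 counts in a library for Cd28, 228 for Lck, 53 for Cd4 and 33 for Cd8a. Of the NK cell markers, 7 of 7 under PBS and 6 of 7 under LPS were at or under the floor of 3 counts. In bulk RNA, fewer cells of a type and less RNA per cell cannot be told apart.

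In resting WT cells, Stat6 and Jak1 were the leading members, and LPS moved Stat2, Stat3 and Jak2 to the top. Per kilobase of exon, WT PBS levels were 52.7 ± 0.770 for Stat6, the factor downstream of interleukin 4 (SD, n = 3, CPM per kilobase), and 42.0 ± 0.994 for Jak1, a kinase used by most cytokine receptors. Stat3, which acts downstream of interleukins 6 and 10, followed at 19 ± 0.66. The next were Stat5b at 9.61 ± 0.476, Stat2 at 7.56 ± 0.316 and Stat5a at 6.58 ± 0.278. Jak3 (5.0 ± 0.37) and Jak2 (4.79 ± 0.464) overlapped, and Stat4 was lowest at 0.346 ± 0.0396. All other neighbours in that order were apart in every library.

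After LPS in WT cells, Stat2 (124 ± 11.4), Stat3 (105 ± 9.92) and Jak2 (98.6 ± 3.81 CPM per kilobase) led, each overlapping the next in that order. Jak1 came below them at 78.7 ± 5.45. Stat5a (36.1 ± 2.52) and Stat6 (34.7 ± 3.96) overlapped. In KO cells with LPS, Jak2 stood first at 166 ± 13.3, apart from Stat2 at 127 ± 8.91, and only Stat3 (95 ± 7.6) and Jak1 (83.1 ± 7.91) overlapped among neighbours. In KO cells with PBS, Stat6 (55.1 ± 1.75) and Jak1 (41.8 ± 1.87) led as in WT, while Stat5a, Jak2 and Stat2 overlapped in sequence at 6.91 ± 0.171, 6.36 ± 0.640 and 5.93 ± 0.488.

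**Figure D1:**
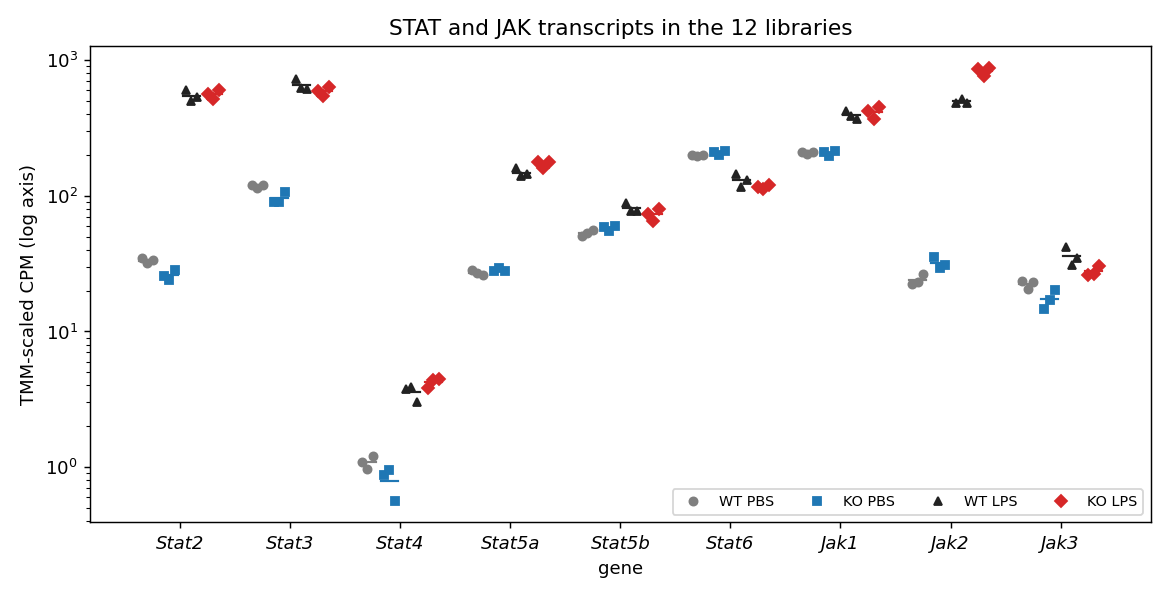
Each point is 1 library, in TMM-scaled CPM on a log axis, and the short lines are group means of 3 libraries for the 9 genes. Stat2 and Jak2 sat between 22.3 and 35.6 CPM in the PBS libraries and at 483 CPM or more in every LPS library, whereas Stat6 was lower in every LPS library than in every PBS library of its genotype.

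To examine the response to LPS, PBS and LPS libraries were compared within each genotype. All 9 members passed the threshold (adjusted p under 0.05) in WT cells, 8 of them higher and Stat6 lower, with TMM scaling. This is to be read against the background of all genes tested, of which 76.7% were called in WT (36.5% higher and 40.2% lower). In KO cells the counts of members were the same, against 79.9% of all genes (38.8% higher and 41.1% lower). The members' median log2 fold change was 1.70 in WT and 2.40 in KO, beside -0.05 and -0.04 over all genes tested. The libraries did not overlap for any member in either genotype, as held for 78.2% of tested genes in WT and 81.3% in KO. All 9 were still called in both genotypes without the WT LPS replicate 1, and without any other single library.

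These shifts depend in size on scaling, since TMM and library totals differ most between treatments. Upper-quartile scaling moved the log2 fold change of the median gene by -0.31 in WT and -0.36 in KO, and library totals alone moved it by -0.66 and -0.80. The share of higher genes among all called fell accordingly from 47.6% with TMM to 32.5% and 21.2% in WT, and from 48.6% to 33.8% and 20.8% in KO. Stat5b and Jak3 are the members whose direction did not hold under all scalings, as given with their values. The other 7 kept theirs in both genotypes.

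Jak2, the kinase of receptors for interferon gamma, interleukin 12 and granulocyte-macrophage colony-stimulating factor, rose most of the members. Its WT libraries held 22.3, 23.3 and 26.7 CPM under PBS and 486, 518 and 483 CPM under LPS, a 20.6-fold rise (log2 fold change 4.36 ± 0.09 SE, edgeR adjusted p = 9.69e-17). Its KO libraries went from 35.6, 29.3 and 31 CPM to 867, 759 and 881 CPM, a 26.1-fold rise (4.71 ± 0.09, edgeR adjusted p = 3.24e-17). The lowest LPS library of either genotype was far above the highest PBS library. A larger log2 fold change was found in 2.74% of tested genes in WT and in 2.93% in KO.

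Stat2, which with Irf9 forms the interferon-stimulated complex ISGF3 and whose promoter is printed above, was next. It stood at 34.6, 31.8 and 33.4 CPM in WT PBS and at 599, 501 and 533 CPM in WT LPS libraries, a 16.4-fold rise (4.03 ± 0.09, edgeR adjusted p = 1.00e-16). In KO it stood at 25.8, 24.1 and 28.3 CPM with PBS and at 558, 520 and 598 CPM with LPS, a 21.4-fold rise (4.42 ± 0.09, edgeR adjusted p = 3.34e-17). The LPS libraries of both genotypes overlapped, whereas their PBS libraries did not.

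Stat3 and Stat5a rose to like extents. Stat3 went from 121, 114 and 120 CPM to 723, 623 and 611 CPM in WT (5.51-fold) and from 90.6, 89.6 and 106 CPM to 592, 545 and 639 CPM in KO (6.19-fold). Stat5a, a factor downstream of colony-stimulating factors and of the common gamma chain, went from 28.2, 26.8 and 26.0 CPM to 160, 141 and 144 CPM in WT (5.48-fold). In KO it went from 27.9, 29.2 and 28.0 CPM to 179, 162 and 178 CPM (6.10-fold). The 4 adjusted p-values were at most 5.58e-14. Stat5a is a sequence neighbour of Stat5b by the shared run printed above, but the latter responded far less.

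Stat5b was measured at 50.6, 53.2 and 55.8 CPM in WT PBS and 89.1, 77.1 and 77.2 CPM in WT LPS libraries, a log2 fold change of 0.61 ± 0.08 with TMM that turned to -0.06 (adjusted p = 0.495) with library totals. In KO it went from 58.5, 54.7 and 60.3 CPM to 73.9, 64.7 and 80.4 CPM, a log2 fold change of 0.34 ± 0.08 that turned to -0.02 (adjusted p = 0.791) with upper-quartile scaling and to -0.47 (adjusted p = 2.62e-05) with library totals. Its direction under LPS therefore cannot be stated apart from the scaling. Its unscaled counts were 1398 to 1562 in WT PBS and 1354 to 1540 in WT LPS libraries.

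Within a library the STAT5 pair can be compared without scaling, and Stat5a overtook Stat5b after LPS. Stat5a was 40.7% ± 2.21 of the pair's counts per exon base in WT PBS and 71.1% ± 0.398 in WT LPS libraries (SD, n = 3). The shares in KO were 39.8% ± 1.77 and 76.2% ± 1.12. Stat5a ranged from 38.5% to 43.0% over the 6 PBS libraries and from 70.8% to 77.1% over the 6 LPS libraries, with no overlap. These shares were chosen after the values had been seen and are a description without a test.

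**Figure D2:**
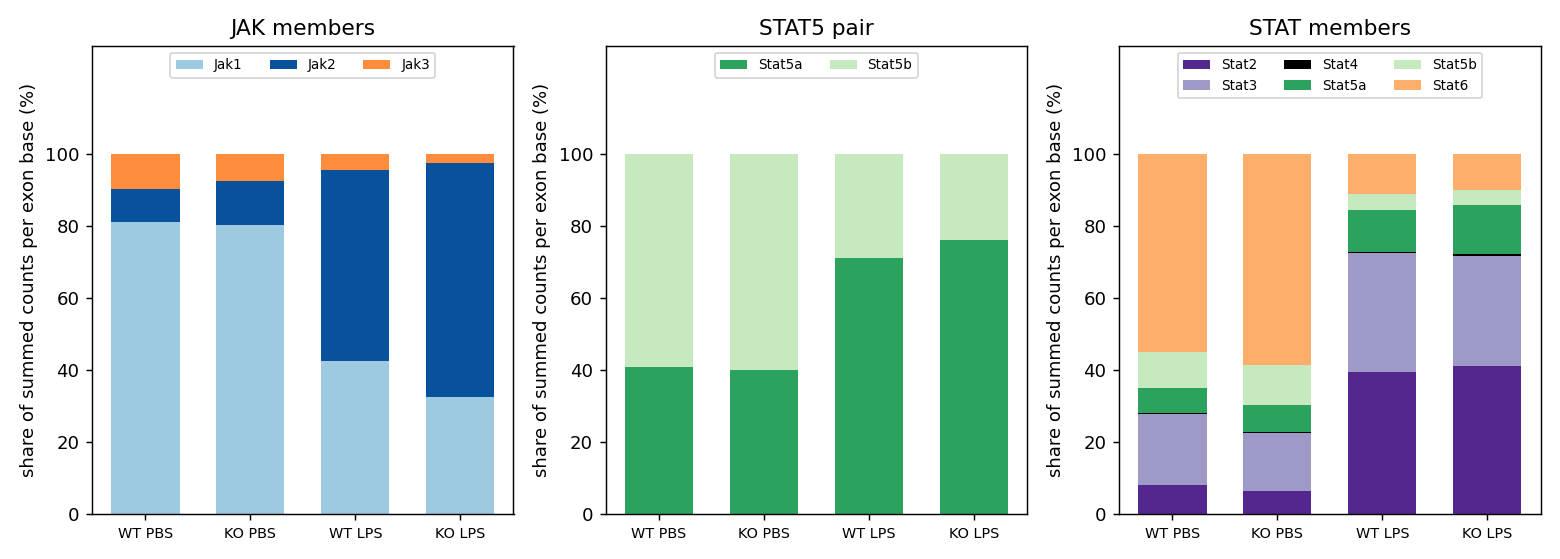
Bars give the mean share, in % of the summed counts per exon base within a library (n = 3 per group), of each JAK member, of the STAT5 pair and of each STAT member. Jak2 rose from 9.25% to 53.2% of the JAK members in WT and from 12.2% to 65.1% in KO, and Stat6 fell from 55.0% to 11% of the STAT members in WT.

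Stat4, the factor of interleukin 12 and best known from T cells and NK cells, was the least abundant member, at 16 to 72 counts per library. It was at 1.08, 0.966 and 1.22 CPM in WT PBS and 3.76, 3.87 and 3.05 CPM in WT LPS libraries (log2 fold change 1.70 ± 0.19). In KO it was at 0.875, 0.948 and 0.567 CPM and then 3.81, 4.41 and 4.48 CPM (2.40 ± 0.19). The T cell list summed to 37.7 to 42.0 CPM in WT PBS and 52.8 to 56.5 CPM in KO PBS libraries. With LPS it summed to 12.3 to 15.9 CPM in WT and 5.85 to 6.67 CPM in KO libraries. Most of it was Cd28 under PBS and Lck under LPS, and Cd3e, Cd3d and Cd3g stayed at or near 0 counts. The NK cell list summed to at most 0.217 CPM under PBS and to 26.1 to 36.6 CPM under LPS, of which Klrk1 alone took 32.4 CPM (WT mean) and 27.8 CPM (KO mean).

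Stat6 was the member that fell, under each scaling. It went from 201, 196 and 200 CPM to 146, 116 and 132 CPM in WT (log2 fold change -0.60 ± 0.07, edgeR adjusted p = 5.90e-07) and from 210, 201 and 214 CPM to 116, 113 and 121 CPM in KO (-0.84 ± 0.07, edgeR adjusted p = 8.32e-09). Of the summed STAT members per exon base, Stat6 held 55.0% ± 0.225 in WT PBS but 11% ± 0.51 in WT LPS libraries, where Stat2 led with 39.3% ± 0.571.

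Jak1 rose 1.87-fold in WT, from 211, 203 and 212 CPM to 419, 388 and 365 CPM, and 1.98-fold in KO, from 212, 197 and 214 CPM to 418, 371 and 449 CPM. Its log2 fold changes of 0.90 ± 0.07 and 0.99 ± 0.07 shrank to 0.24 and 0.19 with library totals and kept their sign. Jak3, the kinase tied to the common gamma chain Il2rg, was at 23.4, 20.4 and 23.1 CPM in WT PBS and 41.6, 31.1 and 34.9 CPM in WT LPS libraries, a log2 fold change of 0.68 ± 0.12 with TMM and of 0.02 (adjusted p = 0.879) with library totals. In KO it went from 14.7, 17.0 and 20.4 CPM to 26.2, 26.4 and 30.5 CPM, 0.67 ± 0.12 with TMM but -0.13 (adjusted p = 0.299) with library totals.

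The order of the JAK members turned over within libraries. Per exon base, Jak1 held 81.1% ± 0.742 of the summed JAK members in WT PBS and 42.4% ± 1.64 in WT LPS libraries, while Jak2 went from 9.25% ± 0.760 to 53.2% ± 2.15. In KO, Jak1 went from 80.3% ± 0.205 to 32.5% ± 0.584 and Jak2 from 12.2% ± 1.00 to 65.1% ± 0.689. Jak2 stayed between 8.48% and 13.3% in the 6 PBS libraries and lay between 50.8% and 65.7% in the 6 LPS libraries. Jak3 went from 9.64% ± 0.468 to 4.33% ± 0.599 in WT and from 7.47% ± 1.14 to 2.43% ± 0.171 in KO. As with the STAT5 pair, these shares were chosen after seeing the values.

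**Figure D3:**
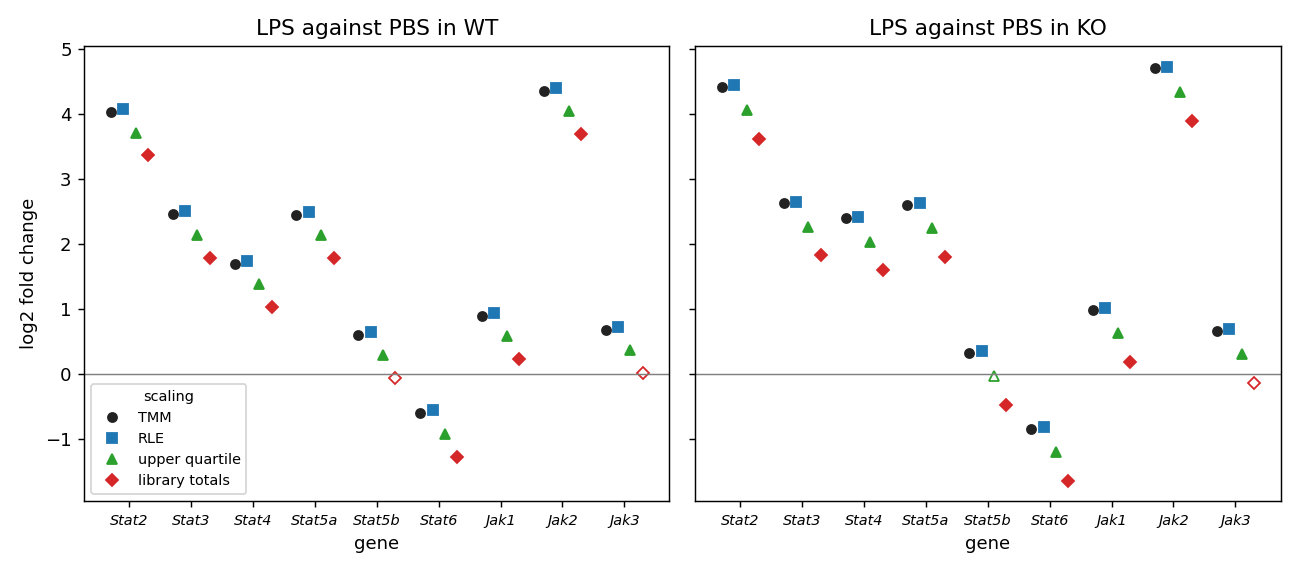
Points give the log2 fold change of LPS against PBS for each gene under 4 scalings, and open points did not pass an adjusted p of 0.05. Stat2, Stat3, Stat4, Stat5a, Jak1 and Jak2 stayed above 0 and Stat6 below 0 under all 4, whereas Stat5b went to -0.06 in WT and -0.47 in KO and Jak3 to 0.02 and -0.13 with library totals.

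To examine the genotype label in resting cells, KO and WT libraries with PBS were compared. Of the 9 members, 1 was higher (Jak2) and 3 were lower (Stat2, Stat3 and Jak3) in KO, beside 25.3% of all genes tested that were called (12.3% higher and 13.0% lower). The share of higher genes among all called was 48.6% with TMM and 61.6% with library totals. Libraries of the 2 labels were apart for 6 members, beside 48.1% of all genes tested.

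Jak2 was 1.33-fold higher in KO PBS libraries (log2 fold change 0.41 ± 0.09 SE, 95% interval 0.22 to 0.59, edgeR adjusted p = 0.00297), and its 3 KO libraries were above the 3 WT libraries. Stat2 was lower by -0.35 ± 0.08 on the log2 scale (interval -0.53 to -0.18, edgeR adjusted p = 0.00539), with every KO library below every WT library. Both stayed past the threshold in all 21 alternatives. Stat3 was lower by -0.31 ± 0.08 (edgeR adjusted p = 0.0121), which was not kept without WT PBS replicate 1 (adjusted p = 0.0709) or without KO PBS replicate 1 or 2 (0.0896 and 0.0862). Jak3 was lower by -0.36 ± 0.12 (edgeR adjusted p = 0.0369), which was not kept without WT PBS replicate 1 or 3 (0.156 and 0.111), without KO PBS replicate 1 or 2 (0.222 and 0.128), with DESeq2 (0.0564), with RLE scaling (0.0514) or with library totals (0.0510). For Stat4 the difference was -0.45 ± 0.23 (interval -0.93 to 0.03) at 16 to 34 counts per library, not detectable at this depth. The intervals for Stat5a (-0.08 to 0.22), Stat5b (-0.05 to 0.29), Stat6 (-0.08 to 0.21) and Jak1 (-0.16 to 0.14) included 0.

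Under LPS, 3 members passed the threshold between the labels: Jak2 and Stat5a were higher and Jak3 was lower in KO. Over all genes tested 41.4% were called (22.1% higher and 19.3% lower), a share near that of the members, and the members called were 6 with upper-quartile scaling and 5 with library totals. The share of higher genes among those called was 53.4% with TMM, 41.6% with upper-quartile scaling and 37.9% with library totals. Libraries were apart for 3 members, beside 45.6% of all genes tested.

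Jak2 differed most, 1.69-fold higher in KO LPS libraries (log2 fold change 0.75 ± 0.08, interval 0.59 to 0.92, edgeR adjusted p = 2.18e-06). All 3 KO libraries (759 to 881 CPM) were above the 3 WT libraries (483 to 518 CPM), and the alternatives gave 0.66 to 0.82, all past the threshold. A more positive difference was found in 4.22% of tested genes. Stat5a was higher by 0.22 ± 0.06 (edgeR adjusted p = 0.00994), with KO libraries at 162 to 179 CPM and WT libraries at 141 to 160 CPM. This call was not kept with library totals (adjusted p = 0.0771), in a fit to the libraries compared alone (0.0512) or without KO LPS replicate 1 (0.0501). Jak3 was lower by -0.37 ± 0.12 (edgeR adjusted p = 0.0210), but not past the threshold without WT LPS replicate 1 (0.0882), without KO LPS replicate 1 (0.0805) or without KO LPS replicate 2 (0.0731).

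The other 6 members did not pass the threshold under LPS. Stat6 gave -0.17 ± 0.07 (interval -0.32 to -0.02, edgeR adjusted p = 0.0660), and passed in 5 of 21 alternatives. Stat5b passed in 3 of 21 and Stat3 in 2 of 21, both lower in KO. The intervals were -0.12 to 0.20 for Stat2, -0.31 to 0.03 for Stat3, -0.10 to 0.60 for Stat4, -0.32 to 0.02 for Stat5b and -0.07 to 0.23 for Jak1. A p that misses the threshold does not show that the levels were alike.

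**Figure D4:**
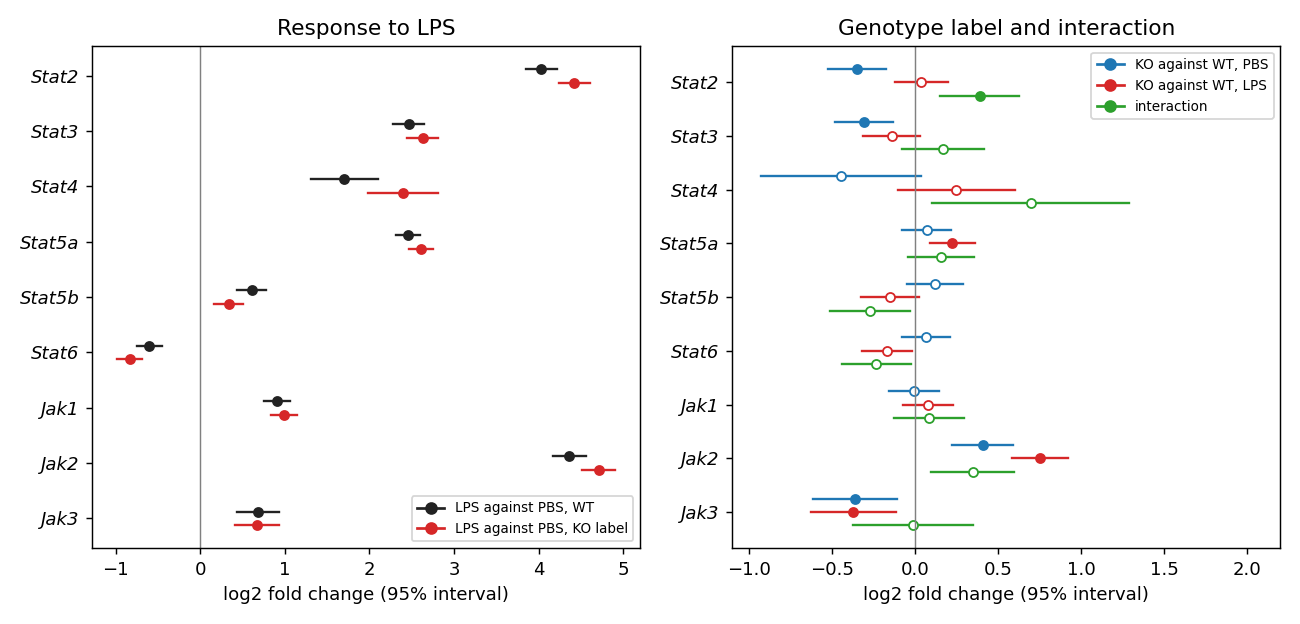
Points are log2 fold changes with 95% intervals from the edgeR fit to 12 libraries, filled where the adjusted p was under 0.05, for LPS against PBS at left and for KO against WT and the interaction at right. Jak2 lies right of 0 in both genotype comparisons (0.41 and 0.75), whereas the LPS changes of Stat5b and Jak3 at left turn to -0.06 and 0.02 in WT and to -0.47 and -0.13 in KO with library totals.

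Whether the response to LPS itself differed between labels was tested as an interaction. Only Stat2 passed of the 9 members, beside 18.0% of all genes tested (9.78% higher and 8.26% lower). The share of higher genes among those called was 54.2% with TMM, 43.1% with upper-quartile scaling and 24.4% with library totals. The rise of Stat2 was larger in KO by 0.39 ± 0.11 on the log2 scale (interval 0.15 to 0.63, edgeR adjusted p = 0.0236), from its lower PBS level to an overlapping LPS level. That call was not kept in 8 of 20 alternatives: library totals (adjusted p = 0.0963) and leaving out WT PBS replicate 1 or 3 (0.0880 and 0.0557), WT LPS replicate 3 (0.0534), KO PBS replicate 1 or 2 (0.0738 and 0.104), or KO LPS replicate 1 or 3 (0.0541 and 0.0570). Jak2 gave 0.35 ± 0.12 (interval 0.10 to 0.60, edgeR adjusted p = 0.0525) and passed in 4 of 20. Stat4 gave 0.70 ± 0.28 (edgeR adjusted p = 0.0987). In the other direction, Stat5b gave -0.27 ± 0.11 (edgeR adjusted p = 0.117) and Stat6 gave -0.23 ± 0.10 (edgeR adjusted p = 0.115), and each passed in 3 of 20.

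The receptors that use JAKs moved in both directions with LPS. Of 30 listed receptor genes 27 were tested, and in WT 18 rose and 6 fell (median log2 fold change 0.91, beside -0.05 over all genes, of which 36.5% rose and 40.2% fell), a total of 22 where at least 10 counts in every library were required. Il12rb1, with at most 9 counts in any PBS library, passed the filter through its LPS libraries. Il15ra, a chain for interleukin 15 whose receptor uses Jak1 and Jak3, rose from a mean of 1.91 to 180 CPM (6.55 ± 0.11), and Il6ra, the interleukin 6 receptor that leads to Stat3, fell from 32.9 to 6.60 CPM (-2.32 ± 0.09). In resting cells 5 were higher and 10 lower in KO, beside 12.3% and 13.0% of all genes. Under LPS, 9 were higher and 4 lower in KO, near the 41.4% of all genes called. Il7r, the interleukin 7 receptor, was higher (236 against 147 CPM, 0.68 ± 0.06), and Il12rb1, a receptor chain of interleukins 12 and 23, was lower (1.60 against 10.1 CPM, -2.65 ± 0.18, edgeR adjusted p = 1.88e-08).

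Of 18 listed cytokines that signal through JAKs 14 were tested, but only 4 had at least 10 counts in every library. The others could pass the filter through their LPS libraries, where they are high, so no count over the list is given. Il12b, the shared subunit of interleukins 12 and 23, went from at most 5 counts per WT PBS library to 764, 750 and 824 CPM with LPS. Csf2, the ligand of a receptor that works through Jak2 and STAT5, was listed at 0 counts in all 6 PBS libraries. With LPS it was at 0.405, 0.626 and 0.903 CPM in WT and 11.05, 9.61 and 7.65 CPM in KO, with at most 16 counts in a WT library. It passed the filter through its KO LPS libraries, so these levels are a description without a test.

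Inhibitors of the pathway were higher with LPS for 14 and lower for 4 of 19 genes in WT, beside 36.5% and 40.2% of all genes. That total fell to 16 with at least 10 counts in every library, a filter that leaves out Socs2 and Cish. Cish, with at most 12 counts in any PBS library, was far higher in its LPS libraries, and the lists that hold it count it. Socs1, which binds and blocks JAKs, rose from 1.70 to 174 CPM (6.67 ± 0.10) and Socs6 fell from 82.4 to 24.8 CPM (-1.73 ± 0.07). In resting cells 3 were higher and 1 lower in KO, beside 12.3% and 13.0% of all genes. That total was 2 without replicate 1 of WT PBS or of KO PBS. Under LPS, 9 were higher and 3 lower in KO, beside 22.1% and 19.3% of all genes. Cish, an inhibitor made in response to STAT5, was at 26.8, 23.9 and 24.0 CPM in WT and at 70.8, 64.9 and 77.5 CPM in KO LPS libraries (1.51 ± 0.10, edgeR adjusted p = 1.69e-08), with no overlap. Socs7 was lower (41.9 against 57.1 CPM, -0.45 ± 0.13), but not past the threshold without KO LPS replicate 2 (adjusted p = 0.0596).

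Of the partner and targets of Stat2, 14 were tested, and the 13 with at least 10 counts in every library rose with LPS in each genotype, beside 36.5% of all genes in WT and 38.8% in KO. Ifi44, with a mean of 0.203 CPM in WT PBS, passed the filter through its LPS libraries and is not in that count, though it is among the 14 of the comparisons that follow, in none of which it was called. Cmpk2, an interferon-induced kinase of nucleotides, rose most, from 12.4 to 7682 CPM in WT (9.27 ± 0.15). Irf9, the DNA-binding partner of Stat2, which was singled out after its values were seen, rose by 1.75 ± 0.08 in WT and 2.18 ± 0.08 in KO. In resting cells 10 of the 14 were lower in KO and none was higher (median -0.49), beside 13.0% lower of all genes. That count was 5 without WT PBS replicate 1, 6 without WT PBS replicate 2, 4 without KO PBS replicate 1, 4 without KO PBS replicate 2 and 6 in a fit to the libraries compared alone. Under LPS 6 of 14 were called, all higher in KO, beside 22.1% higher of all genes, and 3 with library totals. Oas2, an antiviral enzyme, was highest above WT (232 against 141 CPM, 0.72 ± 0.09). In the interaction 11 of 14 passed, all positive, beside 9.78% of all genes. Interaction calls were not limited to this list. Genes tied to Stat3, given below, had 10 positive and 2 negative of 16. For STAT5 these were 5 and 1 of 11, and for Stat6 4 and 2 of 14. Receptors had 9 and 2 of 27 and inhibitors 5 and 1 of 19, beside 9.78% and 8.26% of all genes. Cish and Socs2, low under PBS, are among the calls of the inhibitor and STAT5 lists, and Cish among those of the Stat6 list.

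Genes tied to Stat3 rose for 14 and fell for 2 of 16 in WT, beside 36.5% and 40.2% of all genes. Fpr1, a receptor for bacterial peptides, rose from 0.634 to 267 CPM (8.70 ± 0.17), with at most 20 counts in any WT PBS library. Myc, a growth regulator, fell from 27.7 to 9.74 CPM (-1.51 ± 0.10). In resting cells 2 were higher and 6 lower in KO (median -0.20), beside 12.3% and 13.0% of all genes, and 5 in all were called without KO PBS replicate 1. Under LPS 8 were higher and 2 lower in KO, beside 22.1% and 19.3%. Fpr1 was higher (391 against 267 CPM, 0.55 ± 0.10) and Ccnd1, a cyclin, was lower (6.34 against 15.9 CPM, -1.32 ± 0.10). Under PBS Ccnd1 was lower in KO as well (6.11 against 13.7 CPM, -1.17 ± 0.09), and its interaction was not called.

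Genes tied to STAT5 rose for 9 and fell for 1 of 11 in WT, with the same shares of all genes beside it, a total of 8 with at least 10 counts in every library, which leaves out Cish and Socs2. Ccnd2, another cyclin, rose from 1.28 to 509 CPM (8.63 ± 0.16), and the survival gene Bcl2 fell from 11.4 to 2.11 CPM (-2.43 ± 0.12). In resting cells 3 were higher and 1 lower in KO, beside 12.3% and 13.0% of all genes. Under LPS 6 were higher and 2 lower in KO, again beside 22.1% and 19.3%. Id1, an inhibitor of DNA binding, was higher (7.41 against 2.57 CPM, 1.53 ± 0.14). Under PBS Id1 was higher in KO as well (5.01 against 1.32 CPM, 1.92 ± 0.14), and its interaction was not called. Bcl6, a repressor, was lower (87.2 against 103 CPM, -0.24 ± 0.07), but not past the threshold without KO LPS replicate 2 (adjusted p = 0.0690).

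Genes tied to Stat6 rose for 10 and fell for 3 of 14 tested in WT, beside 36.5% and 40.2% of all genes, and 8 were called where at least 10 counts in every library were required. Cish, held by 3 of the lists, gave the largest fitted rise (6.47 ± 0.20), but with at most 12 counts in any PBS library it passed the filter through its LPS libraries. Pparg, a nuclear receptor of lipid handling, fell from 68.1 to 7.80 CPM (-3.13 ± 0.09). Under LPS 5 were higher and 5 lower in KO, beside 22.1% and 19.3% of all genes, and 6 in all were called with at least 10 counts in every library. Retnla, a marker of macrophages treated with interleukin 4, was lower (1.76 against 5.45 CPM, -1.62 ± 0.25). Under PBS Retnla was lower in KO as well (1.16 against 4.57 CPM, -1.97 ± 0.23), and its interaction was not called. In resting cells 3 were higher and 7 lower in KO, beside 12.3% and 13.0% of all genes. These lists overlap, and their counts are descriptions.

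**Figure D5:**
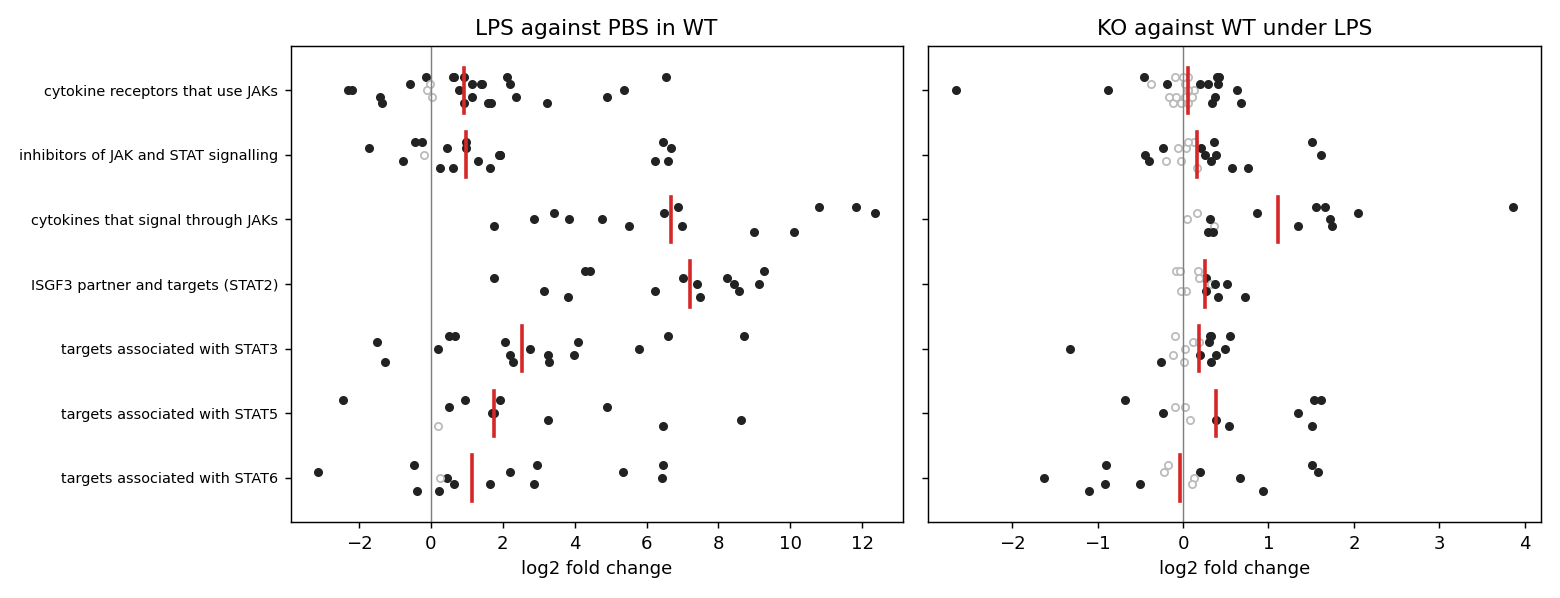
Each point is 1 tested gene of a list, filled where its adjusted p was under 0.05, by log2 fold change for LPS against PBS in WT at left and KO against WT under LPS at right, and red bars are list medians. At left all 14 genes of the Stat2 partner and target list lie right of 0, of which Ifi44 passed the filter through LPS libraries. At right, points of the cytokine list include genes that passed the filter only where they are high, and no direction is read from them.

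The genes whose pattern over the 12 libraries was most like that of each member were found by the root-mean-square difference of mean-centred log2 CPM among genes whose mean reached 5 CPM. They were Bcl3 for Stat2 (0.0800 log2 units), Gas7 for Stat3 (0.0736), Trip13 for Stat4 (0.158), Trim26 for Stat5a (0.0633), Atl3 for Stat5b (0.0606), Vps39 for Stat6 (0.0480), Caprin1 for Jak1 (0.0529), Filip1l for Jak2 (0.170) and Snd1 for Jak3 (0.0953). Each was the nearest of 8722 or 8723 candidates. Set beside the spread of the member itself, the difference was 0.170 of 2.29 log2 units for Jak2 but 0.0953 of 0.413 for Jak3 and 0.0606 of 0.261 for Stat5b. Most of each pattern is the change with LPS, which the 6 LPS libraries share.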

How the data were processed

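Single-end reads of 50 bases came from a BGISEQ-500 sequencer. Per the labels, the submitters' processing notes name Bowtie2, RSEM 1.3.1 and GRCm38.p6, whereas the study's methods name STAR and HTSeq. The deposited values are expected counts per gene, partly with decimals, that the authors had not scaled between libraries. They were rounded and tested with edgeR 4.0.16 in R 4.3.3 (filterByExpr, TMM, robust glmQLFit, glmQLFTest; 12 libraries, 4 group means). P-values are two-sided and Benjamini-Hochberg adjusted over 12064 genes. The biological coefficient of variation was 6.99%. Levels per kilobase used the union of exons of protein-coding transcripts in GENCODE M21. Promoters came from RefSeq (GRCm38.p6).

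Members and lists were chosen with earlier results of these data known. Beside the members, the named genes are the largest called rise and fall of each list for LPS in WT and for KO against WT under LPS, with at least 5 CPM in the higher group, and the gene most like each member. Alternatives were other scalings (RLE, upper quartile, library totals), filters (at least 1 count in all, at least 10 in every library), unrounded counts, DESeq2 1.42.0, fits to only the groups under comparison, a replicate block and leaving out each library. The procedure was tested on simulated data in which genes were changed in the KO LPS group only. Those data held no LPS response in WT and no difference in composition between treatments. They therefore do not test the LPS comparisons or the scaling. Protein sequences and raw reads were not used here.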

Additional observations from a re-analysis of the deposited data

Results flagged for a closer look

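Of the members, Stat2 passed the interaction test in edgeR, as did 18.0% of all genes tested. Among the named pathway genes 7 passed as well, but these had been chosen for large changes with LPS or between labels under LPS, which enter the interaction, so their number is a description. Values are the log2 response in KO minus that in WT. They were 0.39 ± 0.11 for Stat2 (adjusted p = 0.0236), 1.89 ± 0.52 for Cish, 0.59 ± 0.15 for Oas2 (0.0109), 0.54 ± 0.15 for Myc (0.0200) and 0.47 ± 0.08 for Il7r (0.000851). They were -0.64 ± 0.17 for Il15ra (0.0153), -0.53 ± 0.10 for Bcl6 (0.00189) and -0.47 ± 0.13 for Pparg (0.0215). Cish rested on at most 12 counts in any PBS library and passed the filter through its LPS libraries, so its value is a description and its p is not given. The test for a single outlying value needs 4 libraries and was not applied to groups of 3. Leaving out single libraries ended the Stat2 call in 7 of 12 cases, as given in the report.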

How the results depend on the processing

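Over 21 alternatives, the 45 log2 fold changes of the members gave 936 values. Of these, 869 kept direction and side of the threshold, 25 lost the call, 20 gained one and 22 changed sign; the cause was not tested except where fewer libraries were fitted. All 9 members were called for LPS against PBS in both genotypes under the replicate block, without each single library and with every filter. Sign changes with library totals were Stat5b in WT (-0.0564) and KO (-0.465) and Jak3 in KO (-0.129) for LPS, Jak1 under PBS (0.0425), Stat2 (-0.0514) and Jak1 (-0.0109) under LPS for KO against WT, and Jak1 in the interaction (-0.0533). With upper-quartile scaling they were Stat5b for LPS in KO (-0.0213) and Stat2 under LPS for KO against WT (-0.0305). Jak1 under PBS, at -0.0061, also turned to 0.0106 with RLE scaling and 0.0139 with DESeq2, and ranged from -0.0260 to 0.0557 without single libraries. Stat2 under LPS ranged from -0.0198 to 0.112 without single libraries, below 0 without replicate 2 of WT LPS or replicate 3 of KO LPS. Jak3 in the interaction ranged from -0.147 to 0.110, above 0 without WT PBS replicate 2, WT LPS replicate 1, KO PBS replicate 3 or KO LPS replicate 1 or 2.

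For KO against WT under LPS, 6 members were called with upper-quartile scaling and 5 with library totals, instead of 3, and 1 to 4 without single libraries. Under PBS it was 2 to 4. In the interaction it was 3 with upper-quartile scaling, 2 with library totals, 2 with no filter and 0 to 3 without single libraries, instead of 1. Over all genes, KO against WT under PBS called 4627 in a fit to the libraries compared and 1992 to 3896 without single libraries, instead of 3058. Called genes of the cytokine and Stat6 lists were fewer with at least 10 counts in every library, where fewer were tested.

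Replicate numbers did not pair the libraries, with correlations of same-numbered deviations from -0.0758 to 0.127. With the replicate block 4 members were called for KO against WT under LPS, 4 under PBS and 1 in the interaction, and 2969, 5030 and 2132 genes were called under PBS, under LPS and in the interaction. Depth limits Stat4 most, at 16 to 72 counts.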
